A study of Mus musculus with 20 samples.

Results

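The genes described here are 10 tubulin genes of the mouse, named one by one: the alpha-tubulins Tuba1a, Tuba3a, Tuba3b, Tuba4a and Tuba8, the beta-tubulins Tubb2a, Tubb3, Tubb4b and Tubb5, and Tubg1, which encodes gamma-tubulin and is thus neither alpha nor beta. The array has probe sets of their own for 18193 genes in all. Of its 45037 probe sets 19 are annotated with exactly 1 of the 10 genes, and they cover 9 of them, since Tuba3a has no probe set of its own. Of the 19 probe sets, 11 from 8 genes passed the filter on low signal (a log2 signal of at least 5 in at least 2 arrays) and were tested, and 8 did not pass.

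Alpha- and beta-tubulin form the heterodimer that polymerises into microtubules, and gamma-tubulin sits in the ring complexes from which microtubules grow. Dividing germ cells build spindles from these proteins, and spermatids build the manchette around the nucleus and the axoneme of the sperm tail. Mammals carry several genes for each class, which are known to be used to different degrees in different tissues, and testis uses isotypes of its own, Tuba3a and Tuba3b among them.

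The study sorted germ cells from the testes of adult mice by their red and blue fluorescence after Hoechst 33342 staining, which separates cells by DNA content and chromatin state. The animals were C57BL/6 x DBA/2J F1 males of 10 to 16 weeks per the labels (the study's methods give a somewhat narrower range of ages), and the labels name no treatment and no engineered allele for any group. Each array was hybridised with RNA from a pool of sorts. The 20 arrays held 4 of spermatogonia (Sp), 3 of pre-leptotene (pL), 3 of leptotene-zygotene (L/Z), 1 of early-pachytene (eP), 2 of mid-pachytene (mP), 1 of late-pachytene (lP) and 2 of diplotene (D) spermatocytes, and 4 of round spermatids (RS). In such sorted populations, fewer cells of a type and less RNA per cell cannot be told apart.

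The values are GC-RMA signals taken to log2, with a median signal per array of 11.1 to 12.7 before the logarithm. A log2 signal depends on the probes, so it is compared here between fractions for the same probe set and never between probe sets. Matching of the signals to the study's own tables placed the 20 arrays in 6 array projects, and arrays of the same project deviated from their fraction means together (Pearson r of 0.123 to 0.698 over 21 pairs). All 6 round spermatid markers (Prm1, Prm2, Tnp1, Tnp2, Acrv1, Spaca1) had a mean log2 signal of at least 5 in every fraction. Their summed signal was 83996 to 114541 in round spermatids, and 121085 and 155659 in spermatogonia replicates 1 and 2, against 67454 and 41831 in spermatogonia replicates 3 and 4. The summed signal of 8 Sertoli cell markers was 7115 in mid-pachytene replicate 1, 5317 in diplotene replicate 1 and 5987 in round spermatids replicate 1, the 3 arrays of project 4, whereas the other arrays of these fractions gave 541 to 2985. Sums as high were found in earlier fractions, 5247 to 7246 in leptotene-zygotene cells, 6386 in the early-pachytene array and 5477 in pre-leptotene replicate 2. The summed signal of 5 measured spermatogonia markers was also higher in the project 4 arrays of late fractions, 830 against 298 in diplotene cells and 894 against 99.4 to 190 in round spermatids. That of 5 macrophage markers was 738 to 2215 in spermatogonia, 669 in pre-leptotene replicate 1 and at most 74.4 in all other arrays, with Adgre1 and Cd68 under a mean log2 signal of 5 in every fraction. Of the Sertoli markers, Amh, Gata1, Rhox5 and Sox9 stayed under a mean log2 signal of 5 in every fraction.

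Bases upstream of the start sites are shown for Tubb5, the tubulin gene with the largest fall, and for Tuba4a, Tuba8 and Tubb2a, the 3 that rose together into round spermatids. Each run holds the 250 bases before the start site that the RefSeq promoter table gives in GRCm38.p6, written 5′ to 3′ on the strand of the gene. For Tuba4a that start lies inside the annotated span of the gene and not at its outer end. The windows are chr17:35838302-35838551 on the minus strand for Tubb5, chr1:75219295-75219544 on the minus strand for Tuba4a, chr6:121210484-121210733 on the plus strand for Tuba8 and chr13:34078009-34078258 on the minus strand for Tubb2a. Capitals mark matches on either strand to the TATA box (TATAAA), the CCAAT box (CCAAT), the GC box (GGGCGG), the short form of the cAMP response element (TGACG), its full form (TGACGTCA) and the core bound by RFX factors (GTTGCC). The full form of the cAMP response element always holds the short form on both strands.
Tubb5: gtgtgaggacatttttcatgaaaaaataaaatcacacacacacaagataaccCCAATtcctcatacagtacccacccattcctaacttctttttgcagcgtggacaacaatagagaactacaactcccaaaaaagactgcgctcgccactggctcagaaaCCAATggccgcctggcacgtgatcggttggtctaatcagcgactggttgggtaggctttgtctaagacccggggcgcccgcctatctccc
Tuba4a: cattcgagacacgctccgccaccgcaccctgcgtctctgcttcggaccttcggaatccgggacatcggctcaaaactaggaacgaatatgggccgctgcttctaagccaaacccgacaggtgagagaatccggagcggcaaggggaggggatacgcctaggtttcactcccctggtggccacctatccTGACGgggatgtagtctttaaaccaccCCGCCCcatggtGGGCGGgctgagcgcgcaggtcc
Tuba8: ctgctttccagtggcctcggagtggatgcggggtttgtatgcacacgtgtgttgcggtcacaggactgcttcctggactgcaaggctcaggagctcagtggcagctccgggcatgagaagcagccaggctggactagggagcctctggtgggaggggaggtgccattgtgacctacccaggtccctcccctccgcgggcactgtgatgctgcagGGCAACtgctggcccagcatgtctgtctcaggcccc
Tubb2a: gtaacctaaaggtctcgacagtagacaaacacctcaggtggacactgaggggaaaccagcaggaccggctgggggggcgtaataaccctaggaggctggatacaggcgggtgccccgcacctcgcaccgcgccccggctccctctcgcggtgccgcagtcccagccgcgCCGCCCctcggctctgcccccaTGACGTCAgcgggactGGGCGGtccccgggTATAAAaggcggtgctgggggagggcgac
The Tubb5 window held CCAAT 86 to 90 and 194 to 198 bases before the start, a motif found in 33.8% of the 32851 mouse promoter windows of this length. In Tubb2a a full TGACGTCA lay 52 to 59 bases before the start and a TATAAA 24 to 29 bases before it, motifs that 1.55% and 12.4% of windows hold. Tuba4a held the shorter TGACG (17.8% of windows) 58 to 62 bases before the start and GGGCGG (32.7% of windows) on both strands. The window of Tuba8 held only GTTGCC (10.4% of windows), on the opposite strand, 31 to 36 bases before the start. These matches describe the letters in the windows and say nothing about binding.

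The tubulin genes followed different courses through meiosis. Tubb5 was high from spermatogonia to mid-pachynema and Tubg1 from spermatogonia to early pachynema, and both were low in diplotene cells and round spermatids. Tuba8 had its highest signal in round spermatids. Tuba4a and Tubb2a were high in early cells, lowest in late-pachytene cells and high again in round spermatids. By contrast, Tubb4b measured by 1423642_at stayed within less than 1 log2 unit in all 20 arrays.

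**Figure D1:**
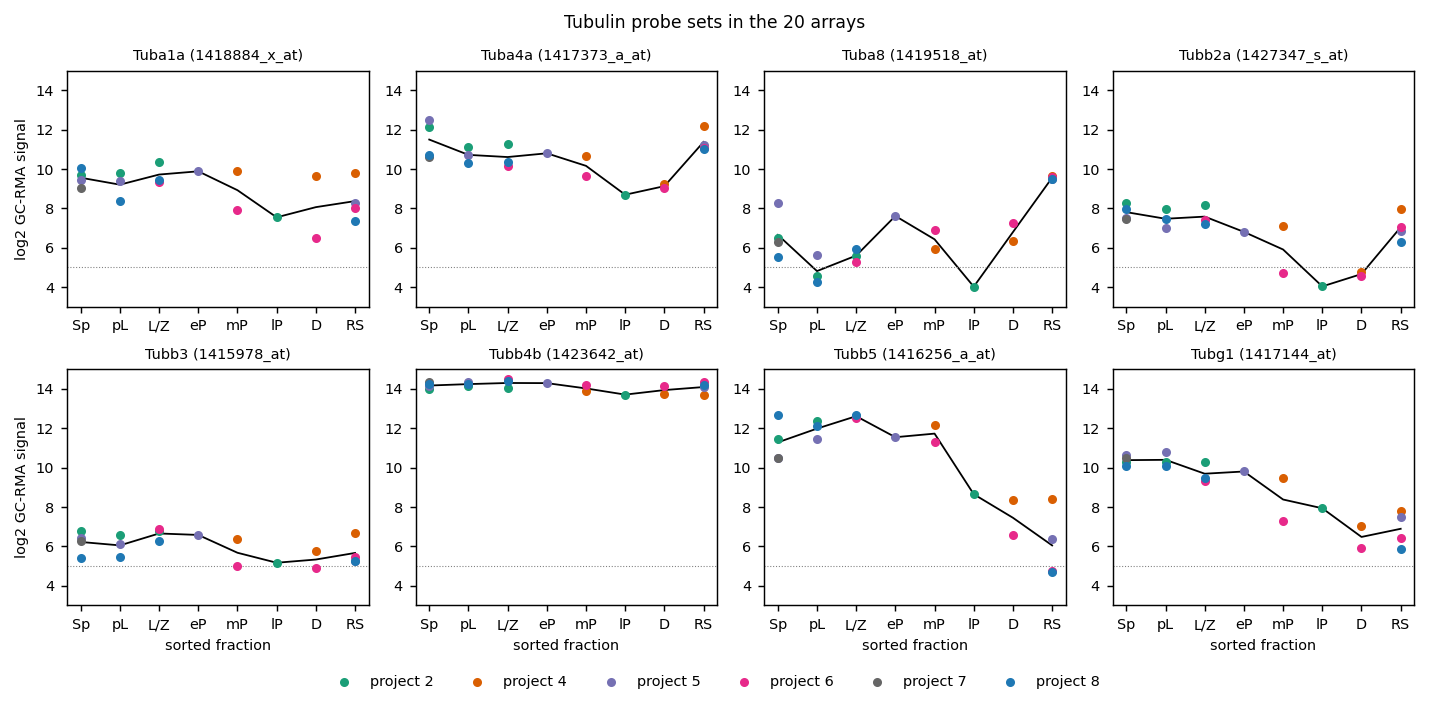
Log2 GC-RMA signal (vertical axis) of 1 probe set for each of 8 tubulin genes, that with the highest mean, in the 8 sorted fractions from spermatogonia (Sp) to round spermatids (RS). Points are arrays coloured by array project, the line joins fraction means and the dotted line marks the filter at 5; Tubb5 drops from 12.62 in leptotene-zygotene cells to 6.05 in round spermatids, whereas Tuba8 reaches 9.56 there.

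Tubb5, a beta-tubulin that many dividing cells use, showed the largest change among the tubulins. With probe set 1416256_a_at the log2 signal was 11.46, 10.49, 10.49 and 12.70 in spermatogonia, 12.38, 11.48 and 12.10 in pre-leptotene cells, and 12.65, 12.54 and 12.66 in leptotene-zygotene cells. It was 11.55 in the early-pachytene array, 12.16 and 11.30 in mid-pachytene cells, 8.65 in the late-pachytene array, 8.34 and 6.57 in diplotene cells, and 8.41, 6.36, 4.75 and 4.68 in round spermatids. All 13 arrays up to mid-pachytene thus lay above all 7 later ones. From mid-pachytene to diplotene cells Tubb5 fell by 4.28 on the log2 scale (change -4.28, SE 1.00, 95% interval -6.40 to -2.16, adjusted p = 0.00702 from limma), and the arrays of the same project differed by -3.82 in project 4 and -4.73 in project 6. At this step 5 of 5 tested spermatogonia markers also fell (median change -4.02), as did 2 of 3 tested peritubular cell markers (median change -2.16). Of 5 tested Sertoli and 3 tested macrophage markers 0 changed. The part of such cells in the fall of Tubb5 was not tested. Of all tested probe sets 19.3% changed, 12.7% lower and 6.56% higher. Among the 11 tubulin probe sets 1416256_a_at of Tubb5 was the 1 that fell, and 0 rose. The call was lost when either mid-pachytene replicate 1 (change -3.85, adjusted p = 0.0727 from limma) or diplotene replicate 2 (change -3.39, adjusted p = 0.0953) was left out, and when the fit held these 2 fractions alone (adjusted p = 0.0715).

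From spermatogonia to round spermatids Tubb5 fell by 5.24 (change -5.24, SE 0.71, adjusted p = 5.2e-06 from limma). The macrophage markers also fell in this comparison (3 of 3 tested, of 5 listed), where 41.2% of all tested probe sets fell. Of 5 tested Sertoli cell markers 1 fell. Round spermatids replicate 1, the highest of its fraction for Tubb5, had the higher Sertoli and spermatogonia marker sums given above. The part of these cells in the values was not tested. The other Tubb5 probe set, 1455719_at, had a log2 signal of 7.44, 5.03, 5.64 and 8.20 in spermatogonia and of 5.82, 3.15, 2.44 and 3.97 in round spermatids. These arrays overlap. The probe set fell by 2.73 (change -2.73, SE 0.75, adjusted p = 0.00372 from limma) and lost its call once values under 5 were raised to 5 (change -1.37, adjusted p = 0.0622). Over the 20 arrays both Tubb5 probe sets had a Pearson r of 0.896. Ordered by level, Tubb5 was highest in leptotene-zygotene cells (mean 12.62), followed by pre-leptotene (11.99), mid-pachytene (11.73), early-pachytene (11.55), spermatogonia (11.29), late-pachytene (8.65), diplotene (7.45) and round spermatids (6.05). Neighbours in this order overlapped from pre-leptotene to spermatogonia and between diplotene and round spermatids.

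Tubg1 encodes the main gamma-tubulin of the ring complex. It was measured by 1417144_at. Its log2 signal was 10.30, 10.65, 10.51 and 10.06 in spermatogonia, 10.30, 10.82 and 10.08 in pre-leptotene cells, 10.27, 9.32 and 9.49 in leptotene-zygotene cells and 9.81 in the early-pachytene array. It was 9.45 and 7.31 in mid-pachytene cells, 7.94 in the late-pachytene array, 7.03 and 5.93 in diplotene cells, and 7.80, 7.50, 6.43 and 5.85 in round spermatids. Round spermatids did not overlap with spermatogonia, and Tubg1 fell by 3.49 between them (change -3.49, SE 0.48, adjusted p = 5.9e-06 from limma). The steps in between did not pass the test. They were -1.31 (adjusted p = 0.120 from limma) from leptotene-zygotene to mid-pachytene cells and -1.90 (adjusted p = 0.0596) from there to diplotene cells, and with the array project as a block both passed (changes -1.90 and -1.90, adjusted p = 0.00270 and 0.00188).

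Between diplotene cells and round spermatids 4 of the 11 tubulin probe sets rose and 0 fell, where 25.1% of all tested probe sets changed, 10.9% higher and 14.2% lower. The 4 belong to Tuba4a, Tuba8 and Tubb2a. The median change of the 11 was 0.33, and that of all 22396 tested probe sets -0.10.

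Tuba8, an alpha-tubulin with a divergent sequence (1419518_at), had a log2 signal of 6.35 and 7.24 in diplotene cells and of 9.64, 9.51, 9.61 and 9.48 in round spermatids. The round spermatid arrays lay close together and above all other arrays. The rise was 2.76 (SE 0.57, 95% interval 1.55 to 3.97, adjusted p = 0.00235 from limma), with differences of 3.29 within project 4 and 2.37 within project 6. Without diplotene replicate 1 it was 2.32 and lost its call (adjusted p = 0.0558 from limma).

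Earlier in meiosis the log2 signal of Tuba8 was 6.51, 8.27, 6.31 and 5.54 in spermatogonia, 4.56, 5.61 and 4.27 in pre-leptotene cells, 5.60, 5.29 and 5.91 in leptotene-zygotene cells, 7.61 in the early-pachytene array, 5.95 and 6.91 in mid-pachytene cells and 4.02 in the late-pachytene array. Spermatogonia replicate 2, the array with the highest spermatid marker sum, was the highest of the 4 spermatogonia arrays, and the part of those cells in its value was not tested. From spermatogonia to round spermatids Tuba8 rose by 2.90 (SE 0.47, adjusted p = 3.3e-05 from limma). It was the 1 tubulin probe set of 11 to rise in this comparison, in which 3 fell (2 of Tubb5 and 1 of Tubg1), against 73% of all tested probe sets that changed, 31.9% higher and 41.2% lower.

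Ordered by level, Tuba8 was highest in round spermatids (mean 9.56), then early-pachytene (7.61), diplotene (6.80), spermatogonia (6.66), mid-pachytene (6.43), leptotene-zygotene (5.60), pre-leptotene (4.81) and late-pachytene (4.02). Arrays of neighbours overlapped from diplotene to mid-pachytene and between leptotene-zygotene and pre-leptotene cells. The other Tuba8 probe set, 1446771_at, stayed between 2.64 and 3.0 in all 20 arrays and did not pass the filter.

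Tuba4a was measured by 2 probe sets above the filter. With 1417373_a_at the log2 signal was 12.14, 12.51, 10.61 and 10.73 in spermatogonia, 11.12, 10.73 and 10.32 in pre-leptotene cells, 11.28, 10.17 and 10.37 in leptotene-zygotene cells and 10.80 in the early-pachytene array. It was 10.67 and 9.66 in mid-pachytene cells, 8.69 in the late-pachytene array, 9.22 and 9.04 in diplotene cells, and 12.21, 11.23, 11.05 and 11.02 in round spermatids. The round spermatid arrays lay above both diplotene arrays, and the late-pachytene array was the lowest of the 20. The rise from diplotene cells was 2.25 (SE 0.54, adjusted p = 0.00624 from limma) with this probe set and 2.28 (SE 0.46, adjusted p = 0.00201) with 1417374_at.

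Within project 4 the 2 Tuba4a probe sets differed by 2.99 and 2.30 between these fractions, and within project 6 by 2.01 and 2.13. Across the 20 arrays they had a Pearson r of 0.926. Spermatogonia and round spermatids overlapped, and their difference did not pass the test (change -0.12, 95% interval -1.05 to 0.81, for 1417373_a_at). Spermatogonia replicates 1 and 2, whose spermatid marker sums were the highest of all 20 arrays, also had the highest Tuba4a signals among spermatogonia, and the part of spermatids in them was not tested. Another Tuba4a probe set, 1417375_at, stayed between 2.14 and 2.29.

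Tubb2a, a beta-tubulin known best from neurons, was measured by 1427347_s_at, a kind of probe set that may also measure other tubulins, which could not be checked without the probe sequences. It had a log2 signal of 4.79 and 4.54 in diplotene cells and of 7.97, 6.87, 7.05 and 6.28 in round spermatids. The arrays did not overlap, and the rise was 2.38 (SE 0.56, adjusted p = 0.00559 from limma), with 3.18 within project 4 and 2.51 within project 6. With values under 5 raised to 5 the rise was 2.04. The other Tubb2a probe set, 1427838_at, lay between 3.17 and 4.74 in all 20 arrays and did not pass the filter. In earlier cells the signal was 8.28, 7.52, 7.47 and 7.97 in spermatogonia, 7.95, 7.0 and 7.47 in pre-leptotene cells, 8.15, 7.41 and 7.19 in leptotene-zygotene cells, 6.81 in the early-pachytene array, 7.12 and 4.70 in mid-pachytene cells and 4.04 in the late-pachytene array.

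Between leptotene-zygotene and mid-pachytene cells Tubb2a was the 1 of 11 tubulin probe sets that changed, falling by 1.67 (change -1.67, SE 0.59, adjusted p = 0.0443 from limma), where 28.9% of all tested probe sets changed, 15.3% lower and 13.7% higher. The mid-pachytene arrays stood far apart, and without replicate 2 the change was -0.46 (adjusted p = 0.678). The call was also lost without leptotene-zygotene replicate 1 or 2 (changes -1.39 and -1.76), with quantile normalization (adjusted p = 0.0523 from limma), without the filter (0.10), with the floor at 5 (0.0503) and with these 2 fractions alone (0.156).

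**Figure D2:**
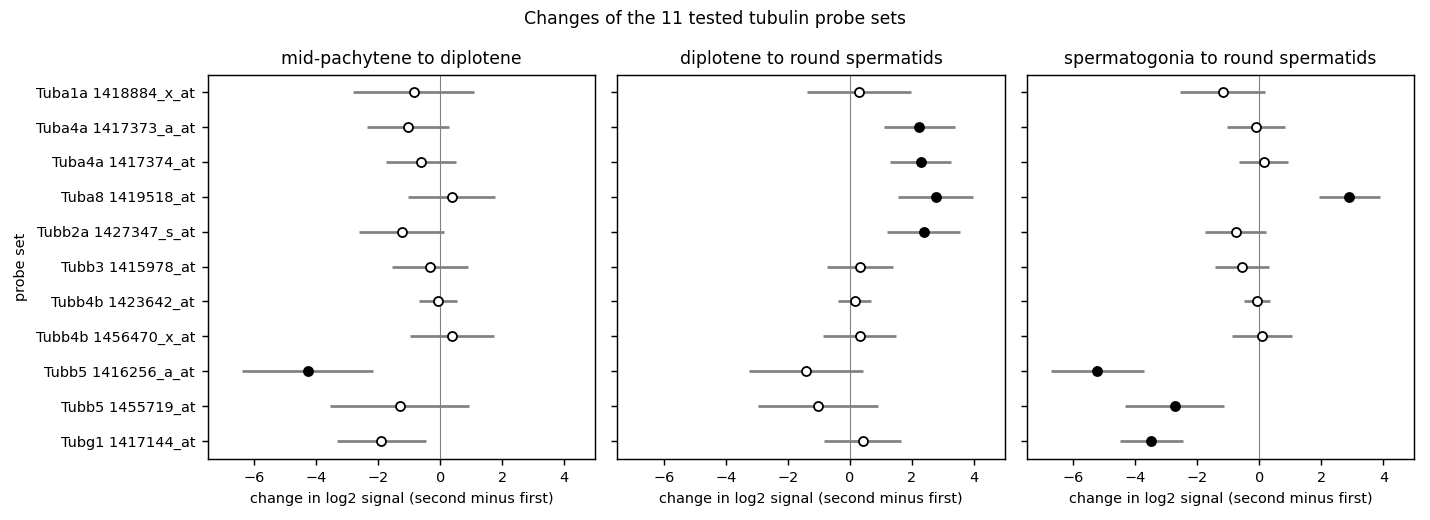
Change in log2 signal (horizontal axis, second fraction minus first) of the 11 tested tubulin probe sets in 3 comparisons, with 95% intervals as bars; filled points passed an adjusted p of 0.05 in limma. Tuba4a, Tuba8 and Tubb2a lie to the right of 0 from diplotene to round spermatids, and Tubb5 lies at -4.28 from mid-pachytene to diplotene cells.

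**Figure D3:**
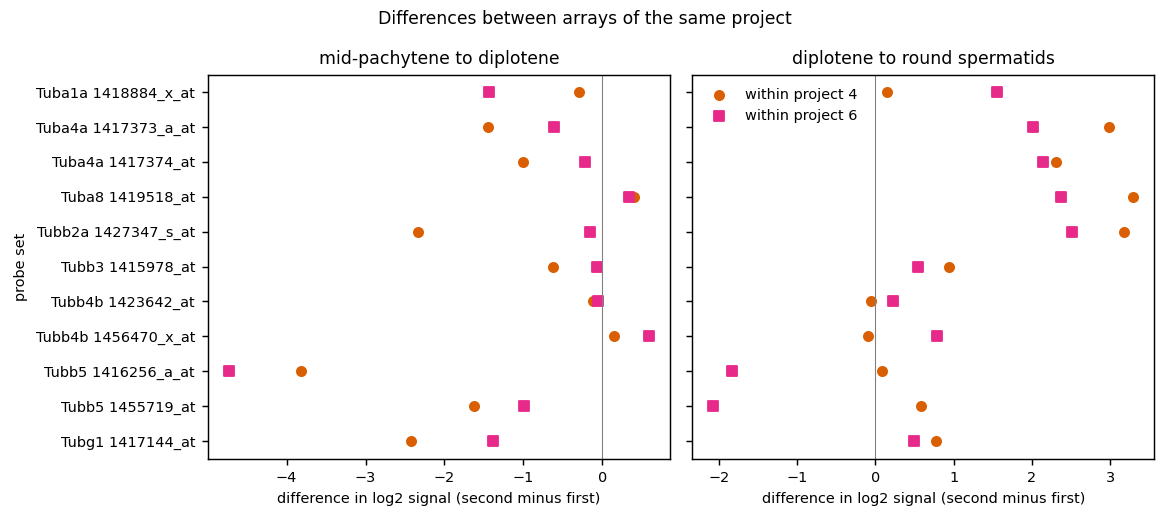
Differences in log2 signal (horizontal axis) between single arrays of the same array project for the 11 tested tubulin probe sets, circles for project 4 and squares for project 6. Both projects place Tuba4a, Tuba8 and Tubb2a between 2.01 and 3.29 from diplotene to round spermatids, while for Tubb5 (1416256_a_at) this step gives 0.08 in project 4 and -1.83 in project 6.

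Tuba1a and Tubb3, isotypes known for their roles in neurons, and Tubb4b, a broadly used beta-tubulin that is also a part of axonemes, passed the test in no comparison. Tuba1a was measured by 1418884_x_at, which may likewise measure other tubulins. It had a log2 signal of 9.71, 9.42, 9.03 and 10.08 in spermatogonia, 9.81, 9.42 and 8.39 in pre-leptotene cells, 10.38, 9.35 and 9.43 in leptotene-zygotene cells and 9.88 in the early-pachytene array. It was 9.92 and 7.93 in mid-pachytene cells, 7.55 in the late-pachytene array, 9.63 and 6.50 in diplotene cells, and 9.78, 8.30, 8.04 and 7.36 in round spermatids. The higher arrays of the last 3 replicated fractions were those of project 4, in which the Sertoli cell marker sums were also higher, and the part of those cells was not tested. With the array project as a block Tuba1a fell by 1.66 from spermatogonia to round spermatids (change -1.66, adjusted p = 0.00335 from limma), where the fit without it gave -1.19 (adjusted p = 0.109).

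Tubb3 (1415978_at) had a log2 signal of 6.79, 6.41, 6.28 and 5.42 in spermatogonia, 6.55, 6.13 and 5.47 in pre-leptotene cells, 6.78, 6.90 and 6.29 in leptotene-zygotene cells, 6.58 in the early-pachytene array, 6.36 and 4.99 in mid-pachytene cells, 5.17 in the late-pachytene array, 5.74 and 4.92 in diplotene cells and 6.68, 5.28, 5.46 and 5.25 in round spermatids. Here too the 3 arrays of project 4 were the highest of their fractions. With the project as a block Tubb3 fell from leptotene-zygotene to mid-pachytene cells (change -1.65, adjusted p = 0.00274 from limma), against -0.98 (adjusted p = 0.174) without it.

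Tubb4b (1423642_at) ranged from 13.70 to 14.49 over the 20 arrays, and its fraction means spanned 0.59. Its change from spermatogonia to round spermatids was -0.08, with a 95% interval of -0.51 to 0.36. The other tested Tubb4b probe set, 1456470_x_at, reached a log2 signal of 5 in 2 arrays and ranged from 3.0 to 5.52, and 1438622_x_at, 1439416_x_at, 1456031_at and 1456078_x_at stayed between 1.34 and 2.54. Across the 20 arrays the 2 tested Tubb4b probe sets had a Pearson r of -0.294. Tuba3b, through 1438611_at, was between 1.92 and 2.06 in every array.

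Between spermatogonia and pre-leptotene cells 0 of the 11 tubulin probe sets passed the test with limma, against 0.487% of all tested probe sets (0.0714% higher and 0.415% lower), and 2 had an unadjusted p under 0.05. Tuba8 had the largest difference (change -1.84, adjusted p = 0.10 from limma), which passed with the array project as a block (change -1.96, adjusted p = 0.0463). At this step 2 of 6 round spermatid markers also fell and 0 rose (median change -1.52). The part of spermatids in the Tuba8 difference was not tested. Between pre-leptotene and leptotene-zygotene cells 0 of 11 passed, against 2.02% of all (1.86% higher and 0.165% lower), and 0 had an unadjusted p under 0.05.

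The testis alpha-tubulins appear on the array in probe sets annotated with several genes at a time, which the choice of members left out. There were 7 such tubulin probe sets. That of Tuba3b and Tuba3a, 1416311_s_at, was between 12.86 and 14.84 and changed by 0.73 from spermatogonia to round spermatids, short of the threshold (adjusted p = 0.0831 from limma), and the other of this pair, 1448296_x_at, by 0.57 (adjusted p = 0.0873). With the array project as a block both passed, at 0.91 (adjusted p = 0.00268 from limma) and 0.68 (adjusted p = 0.00649). The differences within projects 5 and 8 were 0.96 and 0.81 for the first and 0.73 and 0.64 for the other. Both also passed with that block from leptotene-zygotene to mid-pachytene cells (changes 1.02 and 0.84, adjusted p = 0.0125 and 0.0154 from limma), where the fit without it gave 0.70 and 0.61 (adjusted p = 0.283 and 0.233). The probe set of Tuba1b, a broadly used alpha-tubulin, and the gene model Gm5620 (1423846_x_at) fell by 1.09 (change -1.09, SE 0.39, adjusted p = 0.0210 from limma). It was 12.07, 11.41, 11.10 and 12.79 in spermatogonia and 11.37, 10.58, 10.32 and 10.76 in round spermatids. These ranges overlap, and the signals of the single genes in these pairs cannot be told apart.

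Likeness between profiles was described by the Pearson correlation of the 8 fraction means over 19570 probe sets of 1 named gene. The means share arrays and projects, so the values carry no test. Tubb5 was most like Aldoc (r = 0.998), Ddah1 (0.995) and Tox2 (0.995), Tuba8 most like Calr3 (0.988), Spag4 (0.985) and Abhd2 (0.985), and Tuba4a most like Pja1 (0.986), Klf2 (0.983) and Carhsp1 (0.982). For Tubb2a the closest were Vps50 (0.990), Enah (0.990) and Zdhhc20 (0.990), and for Tubg1 they were Trip6, Tmem256 and Glis1 (each 0.993). Tuba1a was closest to Nudt21 (0.978), Get3 (0.977) and Phgdh (0.970), Tubb3 to Eif3f (0.964), Get3 (0.958) and Psph (0.958), and Tubb4b, whose range was narrow, to Phf11d (0.983), Ano1 (0.973) and Ube2c (0.971). Among the tubulins themselves the closest pair was Tuba1a and Tubb3 (r = 0.96). Tuba4a and Tubb2a had an r of 0.94, Tuba1a and Tubb4b of 0.93, and Tubb5 and Tubg1 of 0.87, whereas Tuba8 and Tubb5 ran against each other at -0.46. Over the 20 single arrays these pairs had an r of 0.81, 0.82, -0.06, 0.84 and -0.71, in the same order.

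Of 23 tested genes that modify tubulin after its synthesis 17 rose and 2 fell from spermatogonia to round spermatids, with a median change of 2.73 against -0.32 for all probe sets, 31.9% of which rose and 41.2% fell. Agbl4, a carboxypeptidase that removes glutamate chains from tubulin, rose by 6.10 (SE 0.44; 5.76 with values under 5 raised to 5), and Ttll8, which adds glycine to tubulin, by 5.79 (SE 0.57). Hdac6, a tubulin deacetylase, whose gene is X-linked, fell by 6.96 (change -6.96, SE 0.78, adjusted p = 6.1e-07 from limma). With the array project as a block 16 rose and 2 fell.

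Some of these rises came early. From pre-leptotene to leptotene-zygotene cells 4 of the 23 rose and 0 fell, where 1.86% of all probe sets were higher and 0.165% lower, among them Ttll8 (3.46, from 5.23 to 8.70), Agbl4 (2.87) and Agbl3 (2.46), all with adjusted p of 0.0105 to 0.0172 from limma. Agbl4 and Agbl3 had pre-leptotene means of 3.45 and 3.86, and with values under 5 raised to 5 neither passed (changes 1.32 and 1.32, adjusted p = 0.184 and 0.0859 from limma). The calls rested on single arrays, and 0 rises were left without pre-leptotene replicate 1 or 3 or leptotene-zygotene replicate 3. Of 5 pachytene markers (Pgk2, Ldhc, Hspa2, Piwil1, Pou5f2) 2 also rose at this step and 0 fell. Their summed signal was 2627 to 6176 in pre-leptotene cells and 12482 to 25442 in leptotene-zygotene cells, highest in replicate 3. The part of later cells in the early rises was not tested. From leptotene-zygotene to mid-pachytene cells 10 of the 23 genes rose and 1 fell (median 1.14, 13.7% of all higher and 15.3% lower). Ttll8 was up by a further 3.29, Agbl3 by 2.97 and Ttll13, a glutamate-chain ligase, by 2.76. Without mid-pachytene replicate 2, 6 rose and 0 fell.

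At the step from mid-pachytene to diplotene cells 1 rose, the glutamate-chain ligase Ttll11 (2.11), and 2 fell, Hdac6 (change -4.36) and Ttll12 (change -2.43), against 6.56% of all higher and 12.7% lower. Without diplotene replicate 2 or mid-pachytene replicate 1, 0 rose and 1 fell, and without mid-pachytene replicate 2, 2 rose and 2 fell. From diplotene cells to round spermatids, where Tuba4a, Tuba8 and Tubb2a rose, 8 rose and 2 fell, against 10.9% of all higher and 14.2% lower. Ttll3, a glycine ligase, rose by 2.72 and Vash2, part of the enzyme that removes the last tyrosine of alpha-tubulin, by 2.57. Ttll7, a ligase that starts glutamate chains, had means of 2.87 to 3.49 in the other fractions and of 6.07 in round spermatids, so that it passed the filter only through the latter. Its change was 2.74, or 1.07 with values under 5 raised to 5. Without diplotene replicate 1, 3 rose and 0 fell, and leaving out any other array of this step gave 7 rises and 0 to 3 falls.

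**Figure D4:**
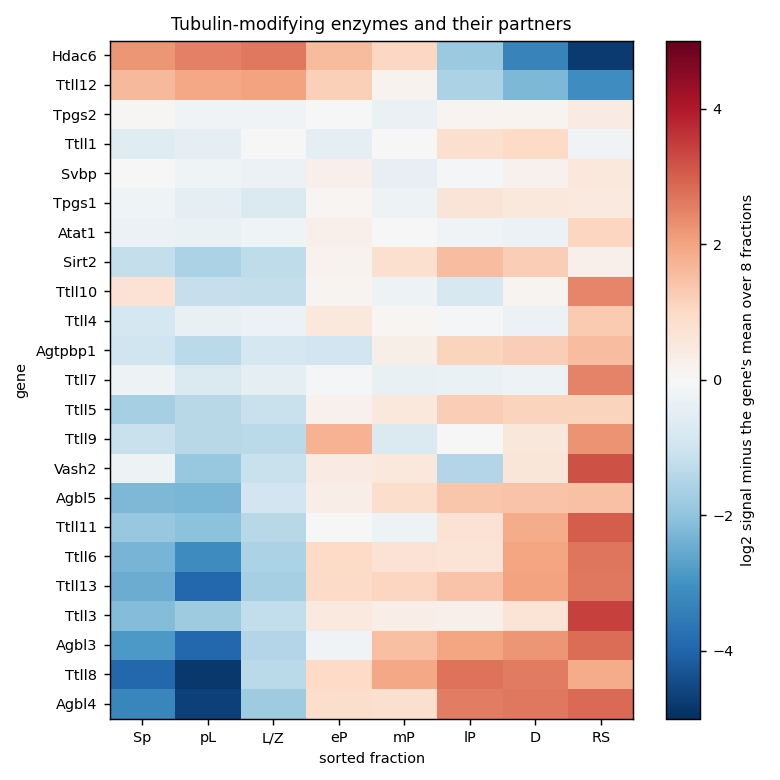
Mean log2 signal of 23 tubulin-modifying genes and their partners in the 8 sorted fractions, each minus the mean of its gene over the fractions (colour scale from -5 to 5), with genes ordered by their change from spermatogonia to round spermatids. Hdac6 and Ttll12 at the top are lower late, and Agbl4 and Ttll8 at the bottom lie above their own means from early-pachytene cells on.

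Ring complex and augmin genes, the partners of gamma-tubulin, had 17 tested genes, of which 5 rose and 9 fell from spermatogonia to round spermatids (median -1.92 against -0.32 for all probe sets, 31.9% of which rose and 41.2% fell). Tubgcp5, a ring subunit, fell by 5.43 (change -5.43, SE 0.52), and the augmin subunits Haus2 and Haus8 by 4.87 and 4.47 (changes -4.87 and -4.47). Between leptotene-zygotene and mid-pachytene cells 2 rose and 5 fell (13.7% of all higher, 15.3% lower), with Mzt2 higher by 1.97 and the X-linked Haus7 lower (change -1.87). From mid-pachytene to diplotene cells 1 rose and 4 fell (6.56% of all higher, 12.7% lower), Tubgcp3 the furthest (change -2.50). From diplotene cells to round spermatids 2 rose and 4 fell (10.9% of all higher, 14.2% lower), with Tubgcp5 at -2.65. Single arrays carried these steps. Fewer genes passed into mid-pachytene cells without mid-pachytene replicate 1 or 2 or leptotene-zygotene replicate 1 or 2. Without leptotene-zygotene replicate 2, 1 rose and 2 fell. The same held into diplotene cells without mid-pachytene replicate 1 or 2 or diplotene replicate 2. Into round spermatids fewer passed whichever of the 6 arrays was left out, with 0 rises and 3 falls without round spermatids replicate 2 or 3. Fits without a mid-pachytene or diplotene array left a single array in that fraction. Over the whole course the counts were 5 to 6 rises and 9 to 10 falls whichever array was left out.

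Of 24 microtubule-associated proteins 9 rose and 14 fell from spermatogonia to round spermatids (31.9% of all higher, 41.2% lower), with Map7d2, which is X-linked, at -6.62 and its relative Map7d1 at -6.08 (-5.96 and -4.52 with values under 5 raised to 5). From diplotene cells to round spermatids 3 rose and 3 fell (10.9% of all higher, 14.2% lower), among them Ckap2, a spindle protein (change -2.41). Map2, which binds microtubules of dendrites, had means of 3.06 to 4.72 in the other fractions and of 7.82 in round spermatids, and so passed the filter through the latter (change 3.10, or 2.82 with values under 5 raised to 5). Eml2, also among the 24 tested, had means of 2.90 to 3.83 in the other fractions and of 5.97 in round spermatids. The latter was thus its only mean above 5, the level of the filter. Of the 23 chaperones and cofactors that fold tubulin 6 rose and 7 fell over the whole course, where 31.9% of all rose and 41.2% fell. Cct6b, the testis form of a chaperonin subunit, rose by 4.10 (SE 0.64), and the X-linked prefoldin subunit Vbp1 changed by -2.31 into mid-pachytene cells, by -2.43 into diplotene cells and by 2.38 into round spermatids.

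The severing enzymes and stathmins had 7 tested genes, of which 2 rose and 4 fell from spermatogonia to round spermatids (31.9% of all higher, 41.2% lower). The katanin-like Katnal2 rose by 4.83 and Katnal1 by 3.27, and Katnbl1 fell by 4.04 (change -4.04). Of the other tubulins, 4 of 10 were tested. Tubd1, the delta-tubulin of centrioles, rose by 1.76 from mid-pachytene to diplotene cells (adjusted p = 0.0243 from limma), a call lost whichever of the 4 arrays was left out. Tube1, the epsilon-tubulin, fell by 1.74 (change -1.74) from diplotene cells to round spermatids, and the beta-tubulin Tubb6 rose by 2.72 (SE 0.55, adjusted p = 0.00199 from limma), from a mean log2 signal of 5.37 to 8.09.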

How the data were processed

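RNA of 8 sorted germ cell fractions was hybridised to 20 Affymetrix MOE430 version 2 arrays. The authors deposited linear GC-RMA intensity values for 45037 probe sets. Which GC-RMA version they ran is not stated in the sources read, and control probe sets were not analysed here. Precision is limited by the number of arrays. Fractions were taken from the labels. Signals were taken to log2, and the 8 fractions were fitted over all 20 arrays with limma 3.58.1 (R 4.3.3, 12 residual and 3.69 prior degrees of freedom), two-sided, with Benjamini-Hochberg adjustment over 22396 probe sets with a log2 signal of at least 5 in at least 2 arrays and a threshold of 0.05. The 6 comparisons share arrays, and p-values cover the spread between pools of sorts.

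Probe sets were named from GEO's platform annotation with symbols updated through RefSeq (34945 with 1 gene, 932 with several, 9160 with none). Promoter windows came from RefSeq (GRCm38.p6), where 9 of the 10 genes matched. Array projects were found by equal signals in a supplementary table of the study (100% of 2157 probe sets); another supplementary table numbers them differently. The labels number 18 arrays, and 2 arrays stand alone in their fraction.

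The genes and lists were chosen with earlier results of these data known. All member probe sets are named; of each list at most 3 genes per comparison, those with the largest change among called genes whose arrays did not overlap, and the 3 genes most like each tubulin gene by fraction means. The probe set of highest mean stood for a list gene. The fits were tested on simulated data. Tables and plots were made with pandas 2.3.3, numpy 2.4.6 and matplotlib 3.10.9 under Python 3.11.15. Alternatives were median centring, quantile normalization, no filter, a floor at log2 5, blocks for replicate number and array project, the compared fractions alone, and each array left out in turn; for the counts of the lists, the project block and the left-out arrays were added after the data were seen.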

Additional observations from a re-analysis of the deposited data

Results flagged for a closer look

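Of 22 groups of 4 arrays examined for an outlying array, 1 held one, and chance alone gives about 1 in 20. Tubb3 (1415978_at) had a log2 signal of 6.68 in round spermatids replicate 1, while the other arrays of that fraction lay between 5.25 and 5.46, and the gap took 0.852 of the whole range against a critical value of 0.829. The Sertoli cell marker sum of that array was 5987, and their part in the value was not tested.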

How the results depend on the processing

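Counts of tubulin probe sets called, of 11 tested, moved with some settings, always in fits by limma. For spermatogonia to pre-leptotene cells the 0 called became 1 with a replicate block and 1 with the array project as a block. For leptotene-zygotene to mid-pachytene cells the 1 called became 0 with quantile normalization, 0 without the filter, 0 with the floor at log2 5 and 0 with these fractions alone, 3 with a replicate block and 4 with the project block. For mid-pachytene to diplotene cells the 1 called became 2 with a replicate block, 2 with the project block and 0 with the 2 fractions alone. For spermatogonia to round spermatids the 4 called became 7 with the project block, 6 with a replicate block (Tuba1a and Tubb2a added), 5 with the 2 fractions alone (Tuba1a added) and 3 with the floor (the lower Tubb5 probe set lost). Leaving out each array in turn gave 0 to 1, 0 to 0, 0 to 2, 0 to 3, 3 to 5 and 4 to 6 calls for the 6 comparisons from spermatogonia to pre-leptotene cells through to spermatogonia against round spermatids. The 0 to 2 for leptotene-zygotene to mid-pachytene cells were 0 without leptotene-zygotene replicate 1 or 2 or mid-pachytene replicate 2, and 2 without mid-pachytene replicate 1. The 0 to 3 for mid-pachytene to diplotene cells were 0 without mid-pachytene replicate 1 or diplotene replicate 2 and 3 without mid-pachytene replicate 2, and the single call among spermatogonia and pre-leptotene cells came without spermatogonia replicate 4.

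Deviations from fraction means were correlated above 0.1 in 33 of 37 pairs of arrays with the same replicate number (median 0.335, lowest -0.172) and in 14 of 96 pairs with other numbers (median -0.115). Since not every same-number pair passed 0.1, the number was not taken to pair the arrays. By contrast, 21 of 21 pairs of the same array project passed 0.1 (median 0.439). The main fit held no term for the project, so its results leave this shared deviation in, and the project block was run as an alternative. With the replicate number as a block all 10 calls of single probe sets kept their direction and side of the threshold, and 6 of the 56 uncalled changes passed. The project block did so for the same 10 and added 8. Among the single calls, none turned direction in any setting run; 59 of 65 refits without 1 array kept the call, as did 8 of 10 with the floor and 8 of 10 with the 2 fractions alone. Signals under a log2 of 5 carry little information, which bears on Tubb2a in diplotene cells and Tubb5 in round spermatids. The causes of these differences were not tested.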
